A study of Solanum lycopersicum with 6 samples.

Results

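The TomatoPan genes were all rows of the leaf read count table whose identifier starts with TomatoPan, and they numbered 1768 of the 35821 listed genes. The rest of the table held 33839 genes with a Solyc identifier and 214 organelle genes. RNA-seq was done on the fourth true leaf of 4-week-old tomato plants of the cultivar M82, from a *kyp* mutant in the M82 background (the Kyp mutant of the labels, 3 biological replicates) and from M82 itself, the wild type (WT, 3 biological replicates). All plants were grown without a treatment at 24 °C with 16 h of light, and the sources used here give no allele of *kyp* and name a single mutant line, donated by another laboratory. The comparison asks how genes behave in a plant that is impaired in the deposition of H3K9me2.

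The tomato pan-genome joins the genes of the Heinz reference genome with genes that were assembled from many other cultivated and wild accessions and are missing from that reference. Genes with a TomatoPan identifier belong to the second kind and can be present or absent from one accession to the next. Dispensable genes of plants are known to be rich in defence functions and are often expressed weakly or in few tissues. KRYPTONITE (KYP) is a histone methyltransferase that places H3K9me2, a mark of constitutive heterochromatin which, together with non-CG DNA methylation, keeps transposons and some genes silent. The sources used here pair no TomatoPan identifier with a symbol, a function or a sequence, since 0 of the 1768 matched the RefSeq gene table of assembly SLM_r2.1, so the genes are given by identifier alone.

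Library totals were between 7283885 and 10091231 counts in *kyp* and between 8925379 and 11012421 in WT. At these depths 3 counts, taken as the smallest signal of a library, equal between 0.272 and 0.412 CPM (counts of a gene per 1000000 counts of the library), a floor that covers counting error only. The plastid genes, the only leaf markers that could be named from the table, held 5521 to 6212 CPM in *kyp* and 6515 to 8809 CPM in WT, and the mitochondrial genes held 693 to 1098 CPM in *kyp* and 422 to 460 CPM in WT. The part of these differences in the results was not tested, and in bulk leaf RNA fewer cells of a type and less RNA per cell cannot be told apart.

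Most TomatoPan genes gave no reads in leaf. No count was present in any of the 6 libraries on 1239 of them (70.1%), against 6864 Solyc genes (20.3%). A mean under 0.5 CPM, taken here as silent, was found for 1569 TomatoPan genes (88.7%) in *kyp* and for 1601 (90.6%) in WT. Among Solyc genes the silent shares were 37.1% in *kyp* and 40.2% in WT. CPM grows with the length of a gene, which was not used here, and these shares describe reads per gene and not transcript levels per length.

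**Figure D1:**
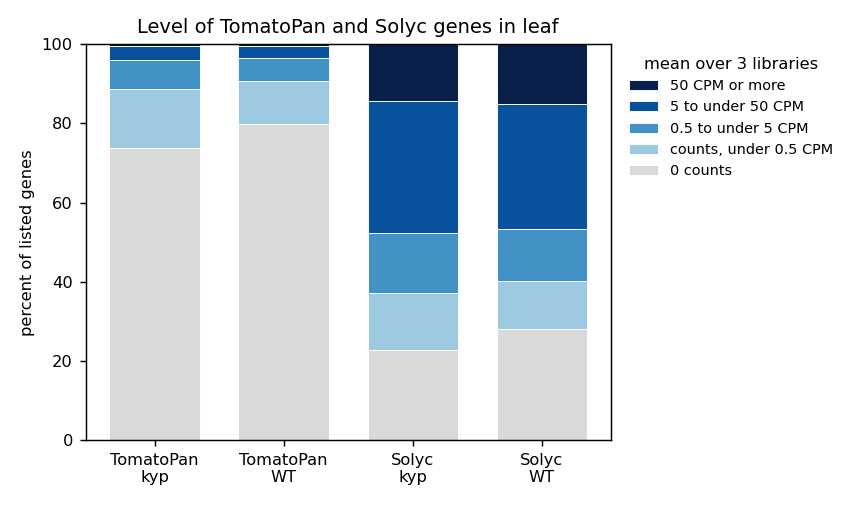
Percent of the listed genes (y axis) in 5 classes of mean CPM over 3 libraries, for TomatoPan genes and Solyc genes in kyp and in WT. The 2 lowest classes together hold 88.7% of TomatoPan genes in kyp and 90.6% in WT, against 37.1% and 40.2% of Solyc genes.

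The TomatoPan genes that were expressed covered a wide range. In *kyp* 199 genes reached 0.5 CPM on average, with a median of 2.95 CPM (interquartile range 1.42 to 8.12), and in WT 167 genes did so, with a median of 3.56 CPM (interquartile range 1.33 to 9.08). Solyc genes above the same limit had a median of 17.9 CPM in *kyp* and 20.1 CPM in WT. Both genotypes exceeded the limit for 156 TomatoPan genes, while 1558 were silent in both. Only 10 TomatoPan genes in *kyp* and 7 in WT reached 50 CPM. Counts in all 6 libraries were present on 194 genes, and 152 genes had counts in exactly 1 library.

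A pair of genes carried much of the signal. TomatoPan014400 had 645, 730 and 606 CPM in the *kyp* libraries, against 789, 833 and 896 CPM in WT. TomatoPan040560 had 579, 671 and 564 CPM in *kyp*, against 731, 690 and 769 CPM in WT. Together the 2 genes with the most counts in each library held 41.8% ± 2.66 of all TomatoPan counts in *kyp* and 49.5% ± 1.04 in WT (SD, n = 3 each). Both are listed in the block of chromosome 2, at positions 14715 and 14718 of the table, on either side of Solyc02g085940.4, the gene with the most counts of the whole table, which had 3271 to 3939 CPM in *kyp* and 3792 to 4425 CPM in WT. Solyc02g085937.1, at position 14716 between TomatoPan014400 and Solyc02g085940.4, averaged only 6.79 CPM in *kyp* and 7.17 CPM in WT. TomatoPan014400 reached 17.5% to 18.5% of the counts of Solyc02g085940.4 in *kyp* and 19.3% to 21.95% in WT. TomatoPan040560 reached 15.7% to 17.2% in *kyp* and 17.4% to 18.2% in WT. Whether reads were shared between near-identical copies was not tested, and the values of these genes are uncertain in that respect.

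More TomatoPan genes received reads in *kyp*, as did Solyc genes. Reads were found for 338, 350 and 368 TomatoPan genes in the *kyp* libraries, against 264, 273 and 290 in the WT libraries. The genotypes did not overlap, with means of 352 ± 15.1 genes in *kyp* and 276 ± 13.2 in WT (SD, n = 3 each; two-sided exact permutation test, p = 0.1). In percent, 19.9 of TomatoPan genes had reads in *kyp* and 15.6 in WT, a difference of 4.32 percentage points, and 71.9 of Solyc genes had reads in *kyp* and 67.4 in WT, a difference of 4.47 percentage points, also without overlap. Under 0.5 CPM lay 1574, 1562 and 1570 genes in the *kyp* libraries, against 1604, 1602 and 1599 in the WT libraries. In percent this was 88.7 ± 0.346 in *kyp* and 90.6 ± 0.142 in WT (SD, n = 3 each; two-sided exact permutation test, p = 0.1), and 0.1 is the smallest p that 3 libraries against 3 can give. Solyc genes moved in the same direction, with 37.3% ± 0.483 under 0.5 CPM in *kyp* and 40.4% ± 0.142 in WT (SD, n = 3 each). With every library thinned at random to 7283885 counts, the depth of the smallest, TomatoPan genes with a count numbered 329 to 338 in *kyp* and 253 to 273 in WT.

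**Figure D2:**
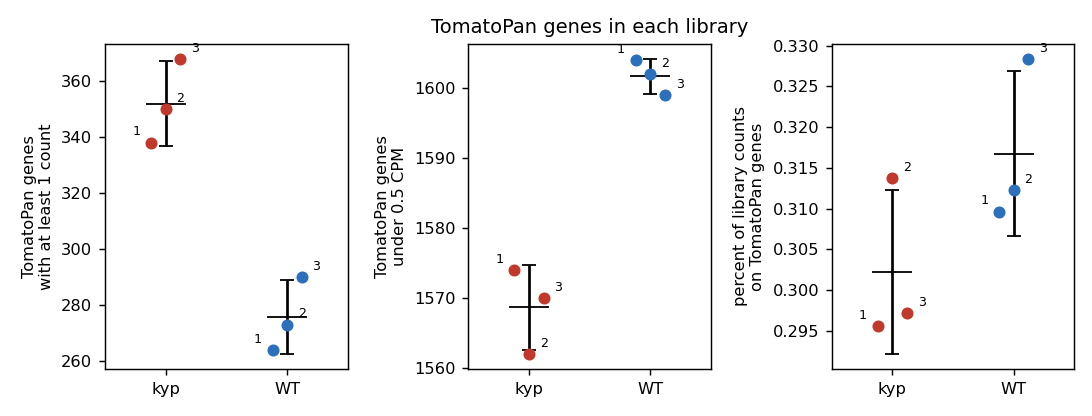
Each point is a library, numbered by replicate, with the mean and SD of the 3 libraries of kyp and of WT. The panels give, on axes that do not start at 0, the number of TomatoPan genes with a count (338 to 368 in kyp, 264 to 290 in WT), the number under 0.5 CPM (1562 to 1574 in kyp, 1599 to 1604 in WT) and the percent of library counts on TomatoPan genes, for which the genotypes overlap.

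The sum of reads did not follow the number of genes. TomatoPan genes took 0.302% ± 0.0101 of the counts in *kyp* and 0.317% ± 0.0102 in WT (SD, n = 3 each), and the genotypes overlapped (two-sided exact permutation test, p = 0.3). This sum rests on few genes, since without the 10 TomatoPan genes with the most counts the shares were 0.108% in *kyp* and 0.105% in WT, with the opposite sign of the difference.

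Some genes were silent in 1 genotype only. By mean CPM alone, 43 TomatoPan genes reached 0.5 CPM in *kyp* while silent in WT, and 11 genes did the reverse, or 2.43% and 0.622% of TomatoPan genes, against 4.22% and 1.05% of Solyc genes. With a limit of 1 CPM for the expressed genotype the numbers were 27 and 0, or 1.53% and 0% of TomatoPan genes. Among Solyc genes they were 823 and 100, or 2.43% and 0.296%. Counts in all 3 *kyp* libraries and in no WT library were present on 38 TomatoPan genes, and counts in all 3 WT libraries and in no *kyp* library on 2, or 2.15% and 0.113% of TomatoPan genes, against 2.64% and 0.139% of Solyc genes. In both kinds of genes, more were thus expressed in *kyp* alone than in WT alone.

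The genotypes were then compared gene by gene with edgeR's quasi-likelihood test over the whole table, after a filter on low counts (roughly 10 counts in each of 3 libraries). Of the 1768 TomatoPan genes, 166 passed the filter and 1602 had too few counts to be tested. The adjusted p (Benjamini-Hochberg, over all 20154 genes tested) was under 0.05 for 43 of the 166 TomatoPan genes (25.9%), against 24.9% of all genes tested. In *kyp*, 36 of them were higher (21.7%, against 14.8% of all genes tested) and 7 were lower (4.22%, against 10.2%). The filter shapes these shares, because genes without expression in WT could enter the test through their *kyp* counts alone. Of the tested TomatoPan genes, 23 were silent in WT on the scale of the fit and all 23 were called higher, as were 519 of 521 such Solyc genes (99.6%). With at least 10 counts asked of every library, 113 TomatoPan genes were tested, of which 11 were higher (9.73%, against 11.6% of all genes tested) and 6 lower (5.31%, against 9.45%). Over the 166 genes the median log2 fold change (*kyp* over WT) was 0.0031, and over all genes tested it was -0.0070.

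**Figure D3:**
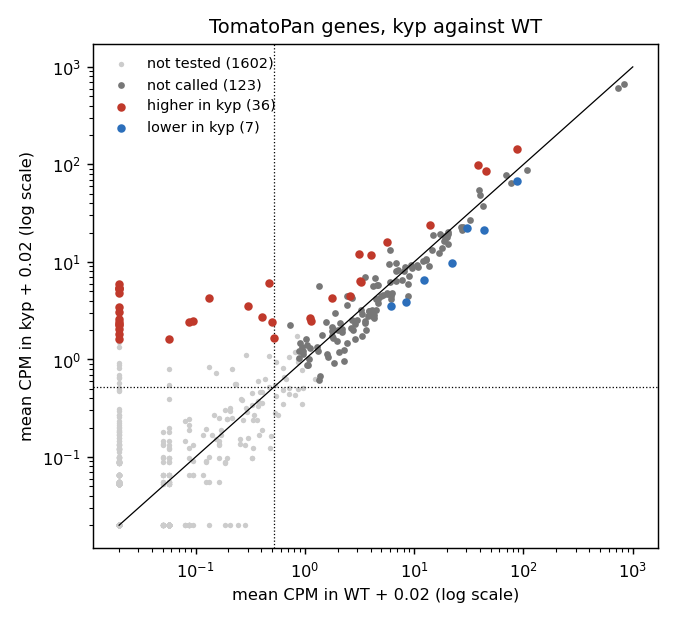
Mean CPM of each of the 1768 TomatoPan genes in kyp (y axis) and in WT (x axis), both with 0.02 added and on log scales, coloured by the call of edgeR's test, with dotted lines at 0.5 CPM and a line of equality. The 36 genes higher in kyp include a column of genes without counts in WT at the left edge, whereas the 7 lower genes lie between 6.11 and 87.3 CPM in WT.

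A set of 23 called TomatoPan genes was switched on, that is, averaged 1 CPM or more in *kyp* while staying under 0.5 CPM in WT after scaling by the trimmed mean of M-values (TMM). Their levels in *kyp* were low, with a median of 2.59 CPM (interquartile range 2.26 to 4.51) and a range of 1.60 to 6.12 CPM. They were 23 of the 542 such genes of the table (4.24%), while TomatoPan genes were 4.94% of all listed genes and 0.824% of the genes tested. Over all genes tested, 2.69% were in this set, against 13.9% of the 166 tested TomatoPan genes. The reading thus depends on the genes taken as the whole, and the filter shapes the tested shares. All 3 WT libraries lacked reads for 14 of the 23, and against the floor of 3 counts in each WT library these 14 were at least 5.29-fold to 19.4-fold higher in *kyp*. The reverse set, called and switched off in *kyp* by the same limits, held 0 TomatoPan genes by edgeR, against 0.208% of all genes tested. With so small a share over all genes, 0 of 166 says little. The set also held 0 TomatoPan genes by DESeq2, by limma-voom and at an unadjusted p under 0.05 by edgeR.

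TomatoPan061370, listed in the block of chromosome 1, had 32, 39 and 93 counts in the *kyp* libraries and 0 in each WT library. It averaged 5.91 ± 2.87 CPM in *kyp* (SD, n = 3). After scaling by TMM this mean was 19.4-fold the WT floor (adjusted p = 0.000816 by edgeR's quasi-likelihood test). The folds given as at least a value bound the WT side only and leave out the spread between *kyp* libraries. TomatoPan062590, the gene listed just before it, had 27, 37 and 86 counts in *kyp* and 0 in each WT library, at least 17.7-fold higher (adjusted p = 0.000999 by edgeR). The third *kyp* library was the highest for both of these neighbours.

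On chromosome 7 another neighbouring pair was switched on. TomatoPan025340 had 18, 96 and 34 counts in *kyp* and 0 in each WT library, at least 17.7-fold higher (adjusted p = 0.00499 by edgeR), with an SD of 4.20 CPM around a *kyp* mean of 5.33 CPM. TomatoPan003320, listed beside it, was far more even, with 37, 54 and 49 counts in *kyp* and 0 in WT, or 5.21 ± 0.443 CPM (SD, n = 3) in *kyp* and at least 17.2-fold higher (adjusted p = 0.000144 by edgeR). The *kyp* library with the most counts was the second in both genes.

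The other genes with the largest fold changes stood alone between Solyc genes. TomatoPan046420 on chromosome 1 had 32, 43 and 55 counts in *kyp* and 0 in WT, or 4.797 ± 0.571 CPM (SD, n = 3) in *kyp*, at least 15.8-fold higher (adjusted p = 0.000158 by edgeR). TomatoPan062950 on chromosome 5 had 22, 21 and 52 counts in *kyp* and 0 in WT, at least 11.4-fold higher (adjusted p = 0.00118 by edgeR). Both were above the floor in every *kyp* library. TomatoPan057310 on chromosome 3 had 21, 26 and 35 counts in *kyp* and 0 in WT, at least 10-fold higher (adjusted p = 0.000334 by edgeR). TomatoPan044510 on chromosome 4 had 23, 22 and 23 counts in *kyp* and 0 in WT, at least 8.55-fold higher (adjusted p = 0.000578 by edgeR). These 8 genes were chosen for their fold change and their lack of overlap, so neither is added evidence.

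**Figure D4:**
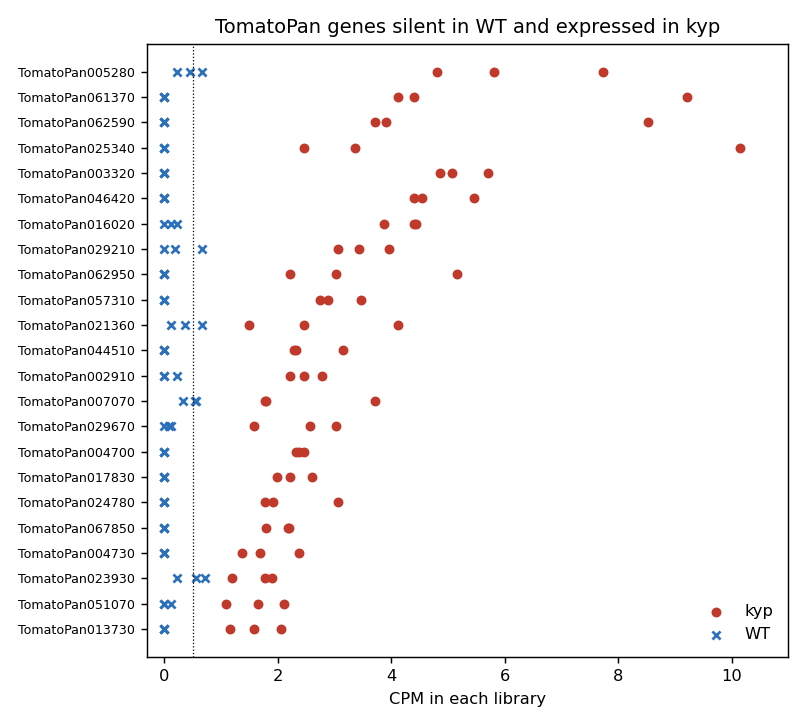
CPM in each library (x axis) of the 23 switched-on TomatoPan genes, ordered by their mean in kyp, with circles for the 3 kyp libraries, crosses for the 3 WT libraries and a dotted line at 0.5 CPM. The genes were chosen by these values, and for TomatoPan061370, TomatoPan062590 and TomatoPan025340 a single kyp library lies far to the right of the other libraries.

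Of the 20 pairs of neighbouring TomatoPan genes with both members tested, 5 (25%) had both called higher in *kyp*, against 472 of 13572 neighbouring Solyc pairs with both tested (3.48%). This is a description with no test, and 3 of the 5 pairs had no WT counts on either gene and so passed the filter on low counts through *kyp* alone. Beside the pairs on chromosomes 1 and 7, TomatoPan017830 had 19, 21 and 20 counts and its neighbour TomatoPan004700 had 18, 22 and 24 counts in *kyp*, and both had 0 in WT, in the block of chromosome 6. On the same chromosome, TomatoPan022740 had 37, 49 and 88 counts in *kyp* and 33, 32 and 26 in WT, and its neighbour TomatoPan019410 had 30, 36 and 48 counts in *kyp* and 15, 18 and 17 in WT. On chromosome 5, TomatoPan016020 had 32, 42 and 39 counts in *kyp* and 2, 0 and 1 in WT, and its neighbour TomatoPan005430 had 24, 20 and 26 counts in *kyp* and 9, 8 and 14 in WT. TomatoPan022740 and TomatoPan005430 were not called in every fit that leaves out a library. These pairs were named after their values were seen, and neighbours may share reads where gene models overlap, since the strand setting of the counting is not given in the sources used here.

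The other 13 genes called higher in *kyp* were expressed in WT as well and changed less, with log2 fold changes between 0.77 and 2.05. TomatoPan019670 on chromosome 9 had the highest WT level of these, with 911, 1044 and 1989 counts in *kyp* and 696, 1013 and 837 in WT, or 144 ± 46.4 CPM in *kyp* and 87.9 ± 8.67 CPM in WT (SD, n = 3 each). Its log2 fold change was 0.77 ± 0.19 (SE; adjusted p = 0.0211 by edgeR), and the call was lost without WT replicate 1 (adjusted p = 0.0789) and without WT replicate 2 (adjusted p = 0.0620). TomatoPan030050 on chromosome 1 had 86.5 ± 14.7 CPM in *kyp* and 45.4 ± 2.76 CPM in WT (SD, n = 3 each), a log2 fold change of 0.99 ± 0.14 (SE; adjusted p = 0.00131 by edgeR). TomatoPan023440 on chromosome 2 had 98.4 ± 26.6 CPM in *kyp* and 38.5 ± 16.0 CPM in WT (SD, n = 3 each), a log2 fold change of 1.42 ± 0.29 (SE; adjusted p = 0.00890 by edgeR), and both genotypes varied widely between libraries. Over the 36 higher genes the median log2 fold change was 4.34 by the fit. With the 14 genes without WT counts set to their lower bounds it was 2.80. Over all genes called higher it was 1.19 by the fit, with no bounds set. Of the 36 genes, 23 were switched on, against 542 of all 2982 genes called higher. Switched-on genes passed the filter on low counts through *kyp* alone, so these medians do not compare the size of the change.

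The 7 TomatoPan genes called lower in *kyp* were all expressed in both genotypes, with a median log2 fold change of -0.85, against -0.69 over all genes called lower. TomatoPan027230 on chromosome 12 changed most, with 69, 86 and 108 counts in *kyp* and 204, 242 and 192 in WT, or 9.76 ± 0.841 CPM in *kyp* and 22.1 ± 0.677 CPM in WT (SD, n = 3 each), a log2 fold change of -1.12 ± 0.12 (SE; adjusted p = 0.000282 by edgeR). TomatoPan042390 on chromosome 8 had 3.83 ± 0.332 CPM in *kyp* and 8.39 ± 2.14 CPM in WT (SD, n = 3 each), a log2 fold change of -1.08 ± 0.23 (SE; adjusted p = 0.0101 by edgeR). These were the only lower genes past 2-fold, or 1.20% of the 166 tested TomatoPan genes, against 2.93% of all genes tested. Of the 36 higher genes 32 were past 2-fold, or 19.3% of the 166 tested, against 8.74% of all genes tested. The higher share includes genes that passed the filter on low counts through *kyp* alone. TomatoPan007050 on chromosome 12 had 153, 208 and 206 counts in *kyp* and 407, 553 and 320 in WT, or 21.1 ± 0.797 CPM in *kyp* and 43.9 ± 7.33 CPM in WT (SD, n = 3 each), a log2 fold change of -0.996 ± 0.13 (SE; adjusted p = 0.000936 by edgeR). TomatoPan017230 on chromosome 5 had 6.58 ± 0.738 CPM in *kyp* and 12.4 ± 0.735 CPM in WT (SD, n = 3 each), with an adjusted p of 0.00330 by edgeR.

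The remaining 3 lower genes were close to the threshold. TomatoPan058030 on chromosome 4 had 3.51 ± 0.550 CPM in *kyp* and 6.11 ± 0.695 CPM in WT (SD, n = 3 each; adjusted p = 0.0314 by edgeR). TomatoPan057880 on chromosome 3 had 22.2 ± 0.665 CPM in *kyp* and 30.3 ± 1.53 CPM in WT (SD, n = 3 each; adjusted p = 0.0218 by edgeR). TomatoPan004290, also on chromosome 3, had 67.4 ± 4.29 CPM in *kyp* and 87.3 ± 7.72 CPM in WT (SD, n = 3 each; adjusted p = 0.0483 by edgeR). Each of these 3 lost its call in at least 4 of the 6 fits that leave out a library. The lower genes numbered 4 without *kyp* replicate 1, 4 without *kyp* replicate 3 and 12 when libraries were scaled by their totals alone. These were 2.37%, 2.42% and 7.23% of the TomatoPan genes tested, against 6.47%, 5.97% and 13.1% of all genes tested. No tested TomatoPan gene fell by 3-fold or more.

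Several of the most abundant TomatoPan genes did not pass the threshold. TomatoPan014400 averaged 660 ± 63.2 CPM in *kyp* and 839 ± 53.9 CPM in WT (SD, n = 3 each), a log2 fold change of -0.29 ± 0.12 (SE; adjusted p = 0.111 by edgeR). It passed with scaling by library totals alone (adjusted p = 0.0438) and without *kyp* replicate 2 (adjusted p = 0.0458). TomatoPan040560 averaged 605 ± 58.1 CPM in *kyp* and 730 ± 39.5 CPM in WT (SD, n = 3 each; adjusted p = 0.212 by edgeR). TomatoPan043060 on chromosome 12 averaged 86.7 ± 11.1 CPM in *kyp* and 108.0 ± 29.5 CPM in WT (SD, n = 3 each; adjusted p = 0.385 by edgeR). The median biological coefficient of variation between replicates was 0.162 over the 166 tested TomatoPan genes and 0.125 over all genes tested. These medians were not matched on level. Genes at 0.5 CPM or more in WT had a median of 3.56 CPM for TomatoPan and 20.1 CPM for Solyc genes.

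Because TomatoPan genes sit low in WT, they were set beside Solyc genes of the same WT level. All Solyc genes were sorted into 11 bins of mean WT CPM, and each bin was weighted by its number of TomatoPan genes. The values are descriptions without a test, since genes are not replicates. Of all 1768 TomatoPan genes, 2.04% were called higher in *kyp* and 0.396% lower, against 4.45% higher and 0.557% lower for the matched Solyc genes. Genes that were not tested count as not called in these shares. Among the 1411 TomatoPan genes without WT counts, 14 were called higher (0.992%), against 294 of 9541 Solyc genes (3.08%). These 14 and 294 were also all the genes of this bin that passed the filter on low counts. The 2 shares therefore give how many genes passed through their *kyp* counts, and the calls add nothing to them. Of the 1601 TomatoPan genes silent in WT, 97.3% were also silent in *kyp*, against 92.2% of matched Solyc genes. Of the 167 at 0.5 CPM or more in WT, 8.38% were called higher and 4.19% lower, against 14.9% and 5.90% of matched Solyc genes.

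For higher calls, this order rested on the measure used for matching. With bins of the mean CPM over all 6 libraries, the 2.04% of TomatoPan genes called higher stood against 1.76% of matched Solyc genes, and the order was reversed. For lower calls it stayed, at 0.396% against 0.699%. The mean over all 6 libraries includes the *kyp* counts on which the calls rest, so a gene high in *kyp* alone moves to a higher bin. The share that was silent in WT and expressed in *kyp* was 1.30% for TomatoPan genes, against 3.05% for Solyc genes matched on WT and 0.678% for Solyc genes matched on all 6 libraries. With bins of the WT level, TomatoPan genes had the lower share of higher calls in each of the 6 fits that leave out a library, from 1.75% to 2.04%, against 4.35% to 5.13% of matched Solyc genes.

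**Figure D5:**
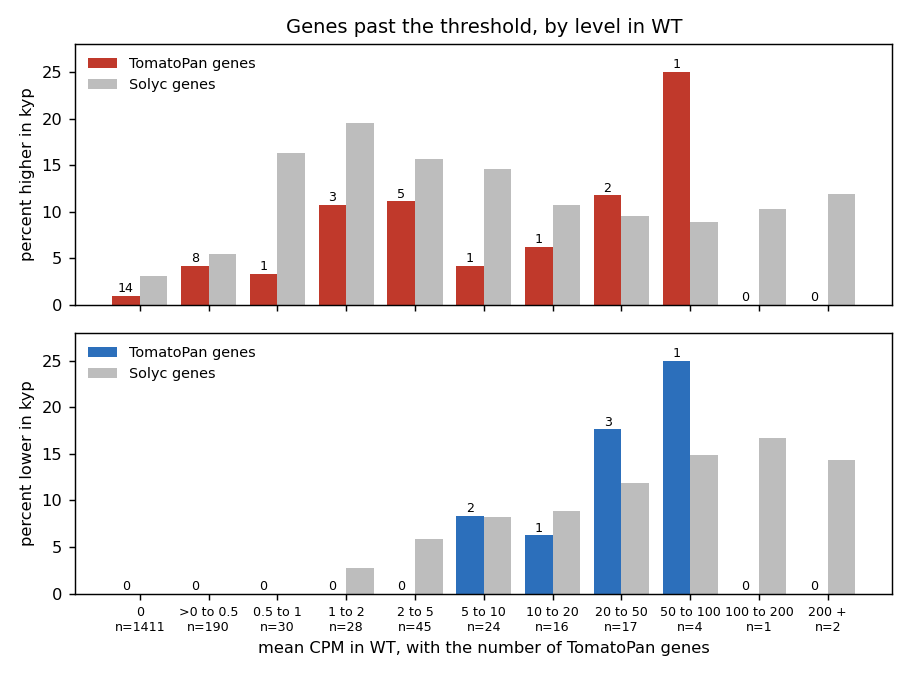
Percent of genes called higher (top) and lower (bottom) in kyp in bins of mean WT CPM (x axis, with the number of TomatoPan genes in each), for TomatoPan genes (coloured, with the number called above the bar) and Solyc genes (grey). TomatoPan genes have the lower share of higher calls in the 7 bins under 20 CPM and the higher share at 20 to 50 CPM (11.8% against 9.55%) and at 50 to 100 CPM (25% against 8.87%), where 2 and 1 genes were called.

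The count table lists genes in 12 blocks that follow the chromosomes, and for 99.0% of the Solyc genes placed there the identifier names that chromosome. In these blocks stood 1763 of the TomatoPan genes, between 80 on chromosome 8 and 186 on chromosome 4, which is 3.15% of the listed genes of chromosome 8 and 7.17% of those of chromosome 5 at the extremes. Every block was rich in silent members, from 81.4% on chromosome 3 to 93.2% on chromosome 9 in *kyp* and from 84.8% on chromosome 3 to 94.6% on chromosome 10 in WT. Along the gene order, TomatoPan genes were 4.79%, 7.26%, 6.55%, 3.48% and 2.76% of the genes when each block was cut into 5 equal parts, from its start to its end. Their silent share in WT was 94.4% in the second of these parts and 83.2% in the last, where Solyc genes had 55.2% and 25.7%. All 12 blocks held at least 1 called TomatoPan gene, and the 23 genes switched on came from 10 blocks.

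Of the 1768 genes, 1186 stood alone between genes of other kinds, 306 stood in pairs and 276 in longer runs of up to 14 genes. By length of the run the silent share was 89.5%, 86.3% and 88.4% in *kyp* and 90.7%, 89.9% and 90.6% in WT for single genes, pairs and longer runs. Of the 364 neighbouring TomatoPan pairs, 93 (25.5%) carried consecutive identifiers. In 3 cases the table lists an identifier and a further copy of it. TomatoPan006180 had 7, 17 and 24 counts in *kyp* and 19, 16 and 15 in WT, and its copy TomatoPan006180_1 had 21, 99 and 53 counts in *kyp* and 47, 81 and 49 in WT, so that reads may have been split between them.

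The Solyc genes listed next to TomatoPan genes were silent more often than Solyc genes in general. Of 2707 such neighbours, 46.7% were under 0.5 CPM in *kyp* and 51.1% in WT, against 36.9% and 40.1% of all Solyc genes in the blocks. Beside the 36 TomatoPan genes called higher, 41 of the 60 Solyc neighbours were tested and 21 of the 41 were themselves called higher (51.2%), 3 were called lower. Beside the 123 TomatoPan genes tested but not called, 18 of 144 tested Solyc neighbours were called higher (12.5%), and over all Solyc genes in the blocks the share was 14.8%. Beside the 7 TomatoPan genes called lower, 3 of 6 tested neighbours were called lower, against 11.8% beside TomatoPan genes tested but not called and 10.2% over all Solyc genes in the blocks. The share of higher neighbours lay between 44.2% and 59.4% in the 6 fits that leave out a library. Under the main filter, genes silent in WT could be tested through their *kyp* counts alone. Of such Solyc genes 519 of 521 were called higher, which raises the share of higher neighbours. With at least 10 counts asked of every library, 11 TomatoPan genes were higher. The share beside them was 43.8%, against 11.6% of all genes tested, Solyc or not. It rests on the few tested Solyc neighbours of these 11 genes and is uncertain. These shares are descriptions, distances between genes were not used here, and reads shared by overlapping neighbours were not tested.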

How the data were processed

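The authors deposited raw counts, that is, unnormalized whole numbers of reads on each gene. By the study's methods, reads were trimmed with Trimmomatic 0.38, mapped to the M82 genome with Bowtie2, and stripped of duplicates and low-quality alignments, whereas the submitters' processing notes name HISAT2 2.2.1, SAMtools 1.9 and featureCounts. The annotation release and strand setting are not given in the sources used here. A limit on mapping quality would lower the counts of near-identical copies. No per-sample column was left unused.

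CPM were counts divided by library totals. Genotypes were compared using edgeR 4.0.16 under R 4.3.3 (filterByExpr, TMM, quasi-likelihood) over the whole table with genotype as the only factor, and DESeq2 1.42.0 and limma-voom (limma 3.58.1) were alternatives. The exact permutation tests were two-sided and used scipy 1.17.1. The fit and the matching were tested on simulated data. Libraries of a genotype differed by more than sampling noise (chi-square per degree of freedom 4.56 to 11.7).

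Genes were named by a rule: the 8 largest changes in each direction among called genes that reached 1 CPM in the higher genotype and did not overlap (7 were lower), the 5 highest in WT and the 3 highest called in each direction. The members and lists were chosen with earlier results of these data known. Chromosome blocks were read from the listing order.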

Additional observations from a re-analysis of the deposited data

How the results depend on the processing

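Settings are compared with the counts and shares given above, and a count is taken as close within 1.5 times. With DESeq2, limma-voom, upper-quartile factors and the replicate block, the 43 called TomatoPan genes became 42, 43, 43 and 47, and 34 of the 36 higher and 5 of the 7 lower genes were called under each of these and with library totals alone. Over all genes tested, 23.8%, 24.5%, 24.9% and 24.1% were called with DESeq2, limma-voom, upper-quartile factors and the replicate block. With library totals alone 12 genes were lower (0.679% of TomatoPan genes, or 7.23% of those tested), against 13.1% of all genes tested. Without a filter 57 were higher, or 3.22% of TomatoPan genes against 8.48% of matched Solyc genes. When 10 counts were asked of each library 17 were called, 11 of them higher, and 0 were switched on, because genes silent in WT cannot pass that filter at any p (23 by DESeq2, 23 by limma-voom and 27 without a filter). At 2-fold or more 2 were lower. With bins of the mean over all 6 libraries, matched Solyc genes were called higher in 1.76% and switched on in 0.678%. Silent shares were 82.7% in *kyp* and 86.5% in WT under 0.1 CPM, a difference of -3.73 percentage points, and 90.6% and 92.3% under 1 CPM. Without the 10 TomatoPan genes with the most counts, the shares of counts were 0.108% in *kyp* and 0.105% in WT, a difference of 0.0031 percentage points in place of -0.0146.

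In the 6 fits that each leave out a library, 36 to 46 genes were called, 31 to 36 higher and 4 to 10 lower. Over all genes tested, 17.3% to 26.8% were called in these fits, 11.1% to 15.9% higher and 5.97% to 10.9% lower. Of the TomatoPan genes, 27 of the 36 higher and 4 of the 7 lower were called in all 6. The lower share was 0.226% to 0.566% for TomatoPan genes and 0.321% to 0.602% for matched Solyc genes, and the silent share in WT was 90.4% to 90.7%. The set silent in WT and expressed in *kyp* held 20 to 25 genes. The cause of these changes was not tested.

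No source used here says that same-numbered plants were grown together, and correlations between 3 libraries of each genotype cannot exclude a pairing. Deviations of same-numbered *kyp* and WT libraries from their genotype means correlated at 0.193, 0.0682 and -0.0579 over 20154 genes, and not every library correlated best with its own number. With the replicate block 39 TomatoPan genes were higher (23.5% of those tested) and 8 lower (4.82%), against 14.8% and 9.33% of all genes tested. Of the 1602 genes that were not tested because of low counts, 1239 had no count in any library.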
